A study of Mus musculus with 16 samples.

Results

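The genes described here encode the initiation factors (eIFs) and elongation factors (eEFs) of cytosolic translation. They were taken by symbol as every gene that begins with Eif1 to Eif6 or with Eef1 or Eef2, without the Eif4ebp, Eif2ak, and Eif2s3 genes, which gave 59 of the 21923 genes in the table. The rule used no measured value. It takes in the eIF complexes, both eEF1 alpha isoforms, eEF2 and its kinase, and 5 methyltransferase genes whose products modify elongation factors. RNA of the gastrocnemius, a calf muscle, was measured by poly(A) RNA-seq in 16 mice, with 4 mice per group and 1 library per mouse. NOR mice received PBS and carried no tumor, CAC mice carried tumors and received PBS daily from day 9, AM mice carried the same tumors and received amiloride at 2 mg/kg daily from day 9, and KD mice were inoculated with Rab27 knock-down cells of the same lines and also received PBS. The mice were 6 to 8 weeks old when obtained, before acclimation, and were killed on day 30 after inoculation. In each group, mice 1 and 2 are labelled C57BL/6, which received LLC lung carcinoma cells if tumor-bearing, and mice 3 and 4 are labelled BALB/c, which received CT26 colon carcinoma cells, so strain and tumor line cannot be told apart. Rab27 was knocked down by short hairpin RNA in the tumor cells and not in the muscle, which therefore holds no check of the knock-down, while amiloride was given to the whole animal. The study asked whether amiloride and Rab27 knock-down, both used there against the release of exosomes by the tumor, alter what the tumor does to muscle.

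Translation of most messages begins when a 43S complex, made of the small ribosomal subunit with eIF1, eIF1A, eIF3, and the eIF2 complex that carries the initiator tRNA, is brought to the capped end of an mRNA by the eIF4 proteins and scans to a start codon. eIF5 and eIF5B then release the factors and join the large subunit, and eIF2B recharges eIF2 with GTP. During elongation, eEF1A delivers aminoacyl-tRNA, the eEF1B subunits recharge eEF1A, and eEF2 moves the ribosome along by a codon. In muscle, protein mass depends on the balance between this machinery and protein breakdown, and muscle fibres and neurons are known for using the eEF1A2 isoform in place of eEF1A1 in adult life.

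Library totals ranged from 35913190 to 61032708 counts, and pairs of libraries of a group differed far beyond counting error, with a chi-square per degree of freedom of 61.8 to 385. Nothing says that the mice came from separate cages or litters, so the p-values measure the spread between these mice. All 8 muscle fibre markers were abundant in every library, as the label gastrocnemius requires, but their summed level was 122600 to 175200 CPM (a count as a share of its library, after TMM scaling) in NOR, 56980 to 128000 CPM in CAC, 109700 to 142300 in AM, and 97590 to 158700 in KD. In bulk tissue, fewer cells of a type and less RNA per cell cannot be told apart. Markers of other cells also moved with the groups. Erythroid markers summed to 1002 to 1374 CPM in NOR, 3646 to 8714 in CAC, 967 to 16080 in AM, and 2207 to 21200 in KD, and neutrophil markers to 2.91 to 19.7, 77.0 to 168, 8.69 to 159, and 9.83 to 228 CPM. Fibroblast markers summed to 1525 to 1827 CPM in NOR, 696 to 1178 in CAC, 1244 to 1706 in AM, and 544 to 1757 in KD, so that neither NOR nor AM overlapped with CAC. This came mainly from Col1a1, at 516 to 839 CPM in NOR and 38.4 to 67.3 in CAC. The other 2 markers overlapped between NOR and CAC, Dcn at 920 to 1005 and 624 to 1049 CPM and Pdgfra at 58.1 to 68.8 and 34.2 to 68.6. The lymphocyte markers were at 0.968 to 3.21 CPM in NOR 1, CAC 1, CAC 4, KD 2, and KD 3 against 29.1 to 343 in the other libraries. The part of these cells in the results below was not tested.

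4 libraries stood apart in a way the labels do not give. CAC 4, AM 1, AM 3, and KD 1 did not overlap with the other 12 libraries in 290 of 10783 genes with a mean of at least 5 CPM, 92 higher and 198 lower, whereas no gene separated the 8 mice labelled BALB/c from the 8 labelled C57BL/6. Ribosomal protein gene Rpl26, for example, was at 9.03 to 31.1 CPM in the 4 libraries and at 248 to 405 CPM in the others. Among the translation factors, Eif2s2 and Eef1g were lower in these 4 libraries without overlap, and none was higher. Trim12a, in the same way, was at 0 to 0.759 CPM in the 4 libraries and at 5.29 to 21.2 CPM in the others. Results by labelled strain therefore rest on labels that this check did not bear out. The split into 4 and 12 libraries was made after the values were seen. Results that rest on these libraries are given with and without them, save for the lists of other translation genes.

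The genes of both eEF1 alpha isoforms, eEF2, and eIF1 were the most abundant of the 59 genes per length of transcript in NOR muscle. In NOR muscle, Eef1a1 stood at 1581 ± 487 FPKM (fragments per kilobase of transcript, scaled to library size; mean ± SD, n = 4), Eef1a2 at 851 ± 82.1, Eef2 at 724 ± 67.9, and Eif1, which holds the scanning complex open, at 347 ± 40.5. The values of neighbours in this order overlapped between mice for Eef1a1 and Eef1a2 and for Eef1a2 and Eef2 but not for Eef2 and Eif1, and those of Eef1g at 256 ± 17.2 and Eif4g2 at 247 ± 15.2, which came next, overlapped as well. The eIF4G scaffold gene Eif4g1 was at 183 FPKM. At the other end, Eif5b was at 10.1 ± 1.07, Eif1a at 5.87 ± 1.27, and Eif5a2 at 0.88 ± 0.35 FPKM. Eif4e1b, an oocyte form of the cap-binding protein, and Eef1akmt3 reached at most 0.23 and 0.25 CPM in any library and failed the filter on low counts in all comparisons of 2 groups, so that 57 of the 59 genes were tested there.

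CAC vs. NOR compared muscle of tumor-bearing and tumor-free mice. The translation factor genes mostly lay higher in CAC. Of the 57 tested, 51 had a positive and 6 a negative log2 fold change, with a median of 0.30 against 0.01 over all 14666 genes tested. Genes were tested with edgeR's quasi-likelihood F test, with the Benjamini-Hochberg false discovery rate (FDR) taken over all genes tested, and differentially expressed genes (DEGs) had an FDR of at most 0.05 and a change of at least 1.5-fold either way. In the following, a gene rose or fell if its FDR was at most 0.05, whatever its size of change. Of the factor genes, 24 rose, or 42.1%, against 7.79% of all genes, and 1 fell against 6.17% of all genes. The number that rose was 8 without NOR 3, where 2.98% of all genes rose, 10 without NOR 2, 11 without CAC 1, and 13 with the replicate numbers as a block. The rising genes held 8 DEGs where 4.32% of all genes were DEGs in that direction, and no factor gene was a DEG in the other direction, where 5.13% of all genes were. In that direction 1 factor gene had an unadjusted p under 0.05, and DESeq2 and limma-voom also gave 0 such DEGs. All 4 CAC values lay above all 4 NOR values in 29 factor genes (50.9%), against 12.5% of all genes.

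**Figure D1:**
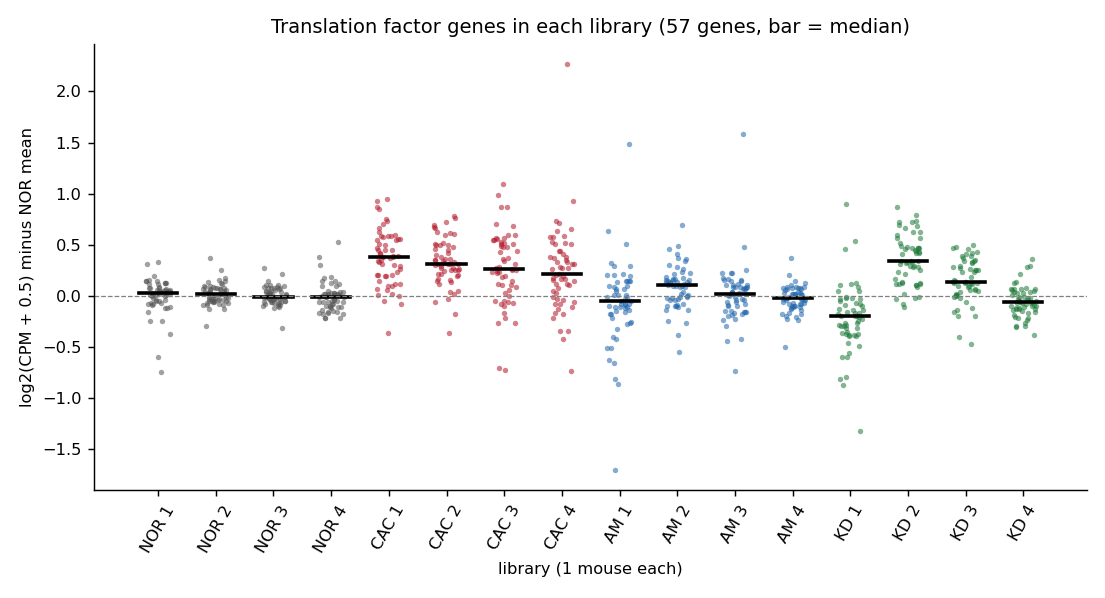
Level of each of the 57 tested factor genes in every library, as log2(CPM + 0.5) minus the mean of the 4 NOR libraries (vertical axis), with 1 point per gene and a bar at the median. The medians of the 4 CAC libraries are at 0.38, 0.32, 0.26, and 0.21, above those of NOR and AM, and among the KD libraries KD 2 stands highest, at 0.34.

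The gain was visible in every CAC library and in the share of the library that these genes took. Summed over the 59 genes, they made up 1.07% to 1.26% of counts in NOR, 1.52% to 1.92% in CAC, 1.19% to 1.47% in AM, and 1.18% to 1.33% in KD. A share of counts weighs the abundant elongation factors most, so the log2 differences per gene are the broader measure. Against the NOR mean, 42 to 54 of the 57 genes were higher in each CAC library, while over all genes the median shift of a library was never beyond 0.019 on the log2 scale in either direction.

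Among the factors of the 43S complex, Eif1 and its partner Eif1a rose in CAC. Eif1 (chr11:100319885-100322096, plus strand, GRCm38) was at 354, 368, 302, and 289.5 CPM in NOR mice 1 to 4 and at 598, 560.3, 531, and 542 CPM in CAC mice 1 to 4 and the groups did not overlap. The log2 fold change was 0.76 ± 0.12 (SE, FDR 0.00764). Eif1a, whose product binds beside eIF1 on the small subunit, had 10.5, 15.2, 14.6, and 15.3 CPM in NOR and 20.9, 21.2, 27.8, and 26.5 in CAC, again with no overlap and with NOR 1 well below its group (0.80 ± 0.15, FDR 0.0144). The near relatives did not pass. Eif1b, which encodes a close copy of eIF1, had a log2 fold change of 0.25 (FDR 0.0997) and Eif1ax, the X-linked copy of Eif1a, one of 0.08 (FDR 0.764). Eif1ax was the more abundant of these 2, with means of 84.7 CPM in NOR and 89.8 in CAC. The means of Eif1a were 13.9 and 24.1 CPM, so its rise was in the less abundant gene. The words of 31 bases in the Eif1 transcripts were shared with other genes in 23% of cases, so a part of its reads may have had more than 1 place to go.

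The 4 genes grouped as eIF2 did not pass in edgeR, DESeq2, or limma-voom, with 2 higher at an unadjusted p under 0.05 (29.1% of all genes passed in either direction), whereas the exchange factor partly did. Eif2s1, the alpha subunit whose phosphorylation slows initiation, had a log2 fold change of 0.15 ± 0.075 (FDR 0.237). Eif2s2, the beta subunit, was at 95.0, 103, 94.1, and 87.4 CPM in NOR and at 139.5, 151, 139.5, and 84.4 CPM in CAC. CAC 4, among the libraries that stood apart, lay below every NOR mouse, and with it the log2 fold change was 0.44 ± 0.18 (FDR 0.142). Without it the value was 0.59 with an FDR of 0.0105. Of the 5 eIF2B subunits, Eif2b1 (0.49, FDR 0.0177), Eif2b3 (0.40, FDR 0.0321), and the catalytic subunit Eif2b5 (0.45, FDR 0.0153) rose, while Eif2b4 (0.23, FDR 0.222) and Eif2b2 (0.03, FDR 0.897) missed the limit.

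eIF3, the largest initiation complex and the platform that binds the small subunit to the eIF4 proteins, held the most genes that rose. All 14 genes had a positive log2 fold change, from 0.25 to 1.31 with a median of 0.46, and 11 rose, 3 of them as DEGs. Eif3e (chr15:43250058-43282719, minus strand) had 89.5, 100.6, 91.0, and 95.9 CPM in NOR and 153, 155, 151.5, and 113 CPM in CAC, where CAC 4 lay below the other 3 mice and still above all NOR mice (0.60 ± 0.12, FDR 0.0142). Eif3f (chr7:108934417-108942951, plus strand), whose product is known as a target of the muscle ubiquitin ligase atrogin-1, was very even within groups. It had 243, 246, 240.4, and 244 CPM in NOR and 374.5, 368, 357, and 384 CPM in CAC (0.60 ± 0.083, FDR 0.00462). Eif3g, an RNA-binding subunit, rose by a smaller amount with a lower FDR (0.54 ± 0.070, FDR 0.00387). The core subunits Eif3c, Eif3b, and Eif3a rose by 0.51, 0.49, and 0.43, and Eif3l, Eif3i, Eif3h, and Eif3k by 0.33 to 0.39. Eif3d, the subunit that can itself bind a cap, had 0.27 (FDR 0.0531) and Eif3m 0.25 (FDR 0.0963).

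The largest fitted change of all 57 genes belonged to Eif3j2, 1 of the 2 nearly identical genes for the eIF3j subunit, and it is uncertain. Eif3j2 had 14.2, 13.9, 15.2, and 13.0 CPM in NOR and 27.6, 22.5, 20.98, and 69.4 CPM in CAC, so that CAC 4 was far above the other 3 CAC mice, which also lay above every NOR mouse. The log2 fold change was 1.31 ± 0.37 (FDR 0.0495) with CAC 4 and 0.75 (FDR 0.0125) without it. The other libraries that stood apart were high for Eif3j2 as well. AM 1 and AM 3 were at 40.3 and 43.0 CPM against 16.4 and 13.9 in AM 2 and AM 4, and KD 1 led its group at 26.7. For Eif3j1, the other gene, CAC 4 and KD 1 were the lowest of their groups, at 109 and 45.6 CPM. AM 1 and AM 3, at 63.1 and 84.6, lay below AM 2 and AM 4. Of the 31-base words in Eif3j2 transcripts, 94.9% occur in another gene and 94% in Eif3j1, so counting may have split their reads, and counts of both were summed after the values were seen. Together they had 134, 130.5, 138, and 115 CPM in NOR and 246, 218, 195, and 178 CPM in CAC, with no overlap between groups (0.69 ± 0.12, FDR 0.0108).

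Among the eIF4 genes, Eif4a1, Eif4g3, and Eif4b rose. Eif4a1 (chr11:69666936-69672423, minus strand), the RNA helicase that unwinds the leader of an mRNA, had 117, 148, 138, and 157 CPM in NOR and 203, 197, 254, and 229 CPM in CAC, and all CAC mice lay above all NOR mice (0.66 ± 0.12, FDR 0.0133). Its muscle- and brain-enriched paralog Eif4a2 had a log2 fold change of 0.14 (FDR 0.569), and the ratio of Eif4a2 to Eif4a1 did not differ past the limit (exact permutation p = 0.0857, adjusted p = 0.193 over 18 ratio tests). The scaffold gene Eif4g3 (chr4:137993022-138208508, plus strand) had 208, 180.1, 208, and 162 CPM in NOR and 339.6, 305, 264, and 244 in CAC (0.60 ± 0.14, FDR 0.0284), while the more abundant Eif4g1 had 0.09 ± 0.12. Eif4b, which stimulates the helicase, rose by 0.51 ± 0.13 (FDR 0.0339).

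Eif4e (chr3:138526179-138559696, plus strand), which encodes the cap-binding protein, was the 1 factor gene that fell in the fit of the 8 NOR and CAC libraries. It had 86.8, 89.1, 96.0, and 92.6 CPM in NOR mice and 70.7, 70.8, 54.99, and 71.7 CPM in CAC mice. The groups did not overlap, and the log2 fold change was −0.45 ± 0.093 (FDR 0.0180), which is short of 1.5-fold. The other cap-binding genes did not pass, with 0.15 for Eif4e2 and −0.02 for Eif4e3.

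Of the factors that act at and after subunit joining, Eif5b and Eif6 rose. Eif5b (chr1:37998010-38055579, plus strand), the GTPase that joins the large subunit, had 75.8, 84.3, 84.9, and 77.8 CPM in NOR and 136, 114, 119, and 121 CPM in CAC, without overlap (0.60 ± 0.083, FDR 0.00473). Its transcripts share 15.3% of 31-base words with Rev1 on the opposite strand, and whether the counting used strand is not given in the sources used here. Eif6, which keeps free large subunits from joining too early, rose by 0.39 (FDR 0.0338). Eif5, which makes eIF2 hydrolyse its GTP, had 0.22 (FDR 0.297), and Eif5a, whose product carries the amino acid hypusine, 0.10 (FDR 0.535).

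The elongation factors split. Eef2 (chr10:81176631-81182498, plus strand) had 2233, 2183, 2335, and 2460 CPM in NOR and 3648, 3212, 3112, and 3424 CPM in CAC, with no overlap (0.54 ± 0.13, FDR 0.0292). Its kinase gene Eef2k, whose product switches eEF2 off, rose as well (0.43 ± 0.11, FDR 0.0406). Eef1a1 was the most abundant by FPKM in NOR but not by CPM. Its values were 1165, 1774, 2056, and 2305 CPM in NOR and 2322, 2163, 3235, and 2225 in CAC, so the groups overlapped (0.46 ± 0.24, FDR 0.242). Eef1a2, the muscle isoform, had 2288, 1724, 1744, and 1610 CPM in NOR and 1891, 1786, 1513, and 1361 CPM in CAC, which overlapped too (−0.18 ± 0.18, FDR 0.574). Of the eEF1B subunits, Eef1b2 rose by 0.38 (FDR 0.0367), while Eef1d had 0.09 and Eef1g −0.11 with FDRs of 0.699 and 0.775. Without CAC 4, the value of Eef1g was 0.06 (FDR 0.822). None of the 4 methyltransferase genes tested passed in edgeR, DESeq2, or limma-voom, with 1 higher at an unadjusted p under 0.05 (29.1% of all genes passed in either direction). Their largest value was 0.64 for Eef1akmt4 (FDR 0.166).

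**Figure D2:**
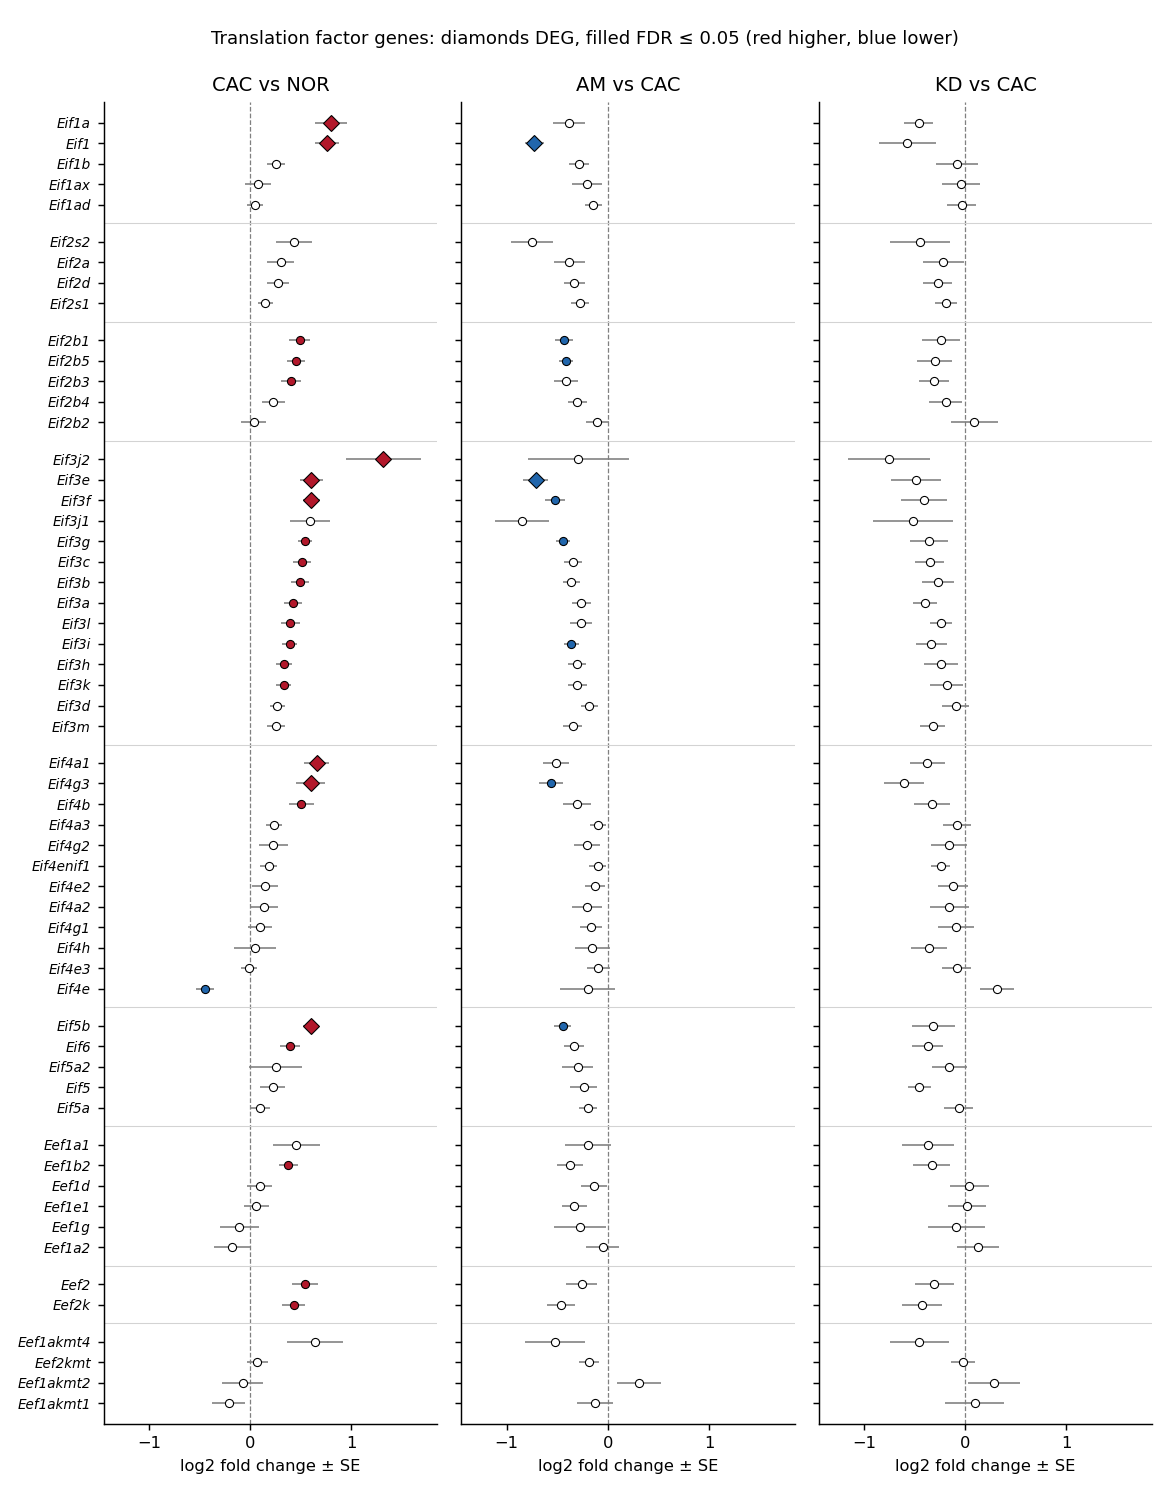
Log2 fold change of each tested factor gene (points, with bars of 1 SE) for CAC against NOR mice and for AM and KD against CAC mice, 1 panel each, grouped by complex, where filled points have an FDR of at most 0.05 and diamonds are DEGs. Of 57 genes, 51 lie above 0 in CAC vs. NOR, but 1 and 7 do so when AM and KD, respectively, are set against CAC, and Eif4e is the only filled point below 0 in CAC vs. NOR.

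The calls in CAC vs. NOR leaned on some mice more than on others. Eif1, Eif1a, Eif3f, Eif4a1, and Eif5b kept an FDR of at most 0.05 whichever mouse was left out, Eif3e lost it without NOR 3 (FDR 0.0523), Eif4g3 lost it without NOR 2, NOR 3, NOR 4, CAC 1, or CAC 2, and Eif3j2 lost it when any NOR mouse or CAC 1 was left out. Eif4e lost it without NOR 3 (FDR 0.06), with the replicate numbers as a block (FDR 0.0556), and in a fit of all 16 libraries (FDR 0.269), and Eef2 lost it in 7 of the 8 cases, all but that of CAC 3. Eef2k lost it when any NOR mouse, CAC 1, or CAC 2 was left out, and Eef1b2 when any mouse but CAC 4 was left out. Within the mice labelled C57BL/6 the median log2 fold change of the factor genes was 0.34, and within those labelled BALB/c it was 0.31. No interaction of the labelled strain with the difference between CAC and NOR had an FDR of at most 0.05 among the factor genes or among all 15235 genes tested by edgeR, and 2 of 57 factor genes had an unadjusted p under 0.05, where 4.87% of all genes did. This test and the medians by strain hold for the labelled strains, which no gene separated in that check. Without the 4 libraries that stood apart, of which only CAC 4 enters here, 26 factor genes rose, 11 of them as DEGs, and 1 fell.

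The promoters of the factor genes are shown because many of these genes moved together and because Eif4e moved the other way. Promoter sequences from 250 bases before to 50 bases after a transcript start were available from RefSeq (GRCm38.p6) for 45 of the 59 genes, with 59 promoters in all. They were searched on both strands for the STAT motif TTCNNNGAA, the C/EBP motif TTGCNNAA, the ATF4 and C/EBP composite motif TGATGNAA, and the FoxO motif GTAAACA, named after transcription factors that are known from inflamed, stressed, or wasting tissue. The capitals below mark the match in a 30-base window, read 5′ to 3′ on the strand of the gene. All 5 STAT windows are given. Of their genes, Eif3c, Eif3g, and Eef2k rose in CAC, Eif4e fell, and Eef1e1 did not pass (0.06, FDR 0.807).
Eif3c STAT (chr7:126566414-126566443, minus strand): tctttggtgcTTCCGGGAAgtgacgccccc
Eif3g STAT (chr9:20898756-20898785, minus strand): gtttaaaaagTTCTTTGAAgcttttttttg
Eef2k STAT (chr7:120843386-120843415, plus strand): cgggcctcagTTCTCGGAAcctcgaggtct
Eif4e STAT (chr3:138527119-138527148, plus strand): aagactccacTTCCCAGAAgcctctccttc
Eef1e1 STAT (chr13:38659221-38659250, minus strand): ggatacattcTTCTGTGAAactgtctacac
The STAT motif occurred in 5 factor promoters (8.47%) against 8.3% of 32851 promoters of all genes, and the C/EBP motif also in 5 (8.47%) against 10.8%. The composite motif was found in 1 (1.69%) against 3.97%, and the FoxO letters in 0 of 59 against 3.65%. The C/EBP letters were in Eef1b2, which rose, in Eif4e, which fell, and in Eif2b2, Eif2d, and Eif4g1, which did not pass. The shares of the STAT and C/EBP motifs were thus near those of promoters at large, and either motif was found beside calls in both directions and beside none. The STAT match of Eif3c lay 67 bases before its start. That of Eif4e lay 139 bases before the downstream of the 2 starts listed for it, which is inside the gene as given above, and such matches are a description of letters and not of binding.

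AM vs. CAC compared amiloride-treated with PBS-treated tumor-bearing mice. Here the factor genes lay lower in the treated mice. The log2 fold change was negative in 56 of the 57 genes, with a median of −0.30 against 0.01 over all 14674 genes, and Eef1akmt2 was the exception at 0.31 (FDR 0.471). In edgeR, 9 genes fell (15.8%, against 3.22% of all genes) and 0 rose, where 1.76% of all genes did. With the replicate numbers as a block, and in a fit of all 16 libraries, 0 factor genes fell. Of all genes, 0% fell with the block and 0.795% in the fit of all 16 libraries. At an unadjusted p under 0.05, 30 were lower and 0 higher, where 21.7% of all genes passed in either direction. DESeq2 found 20 that fell and 0 that rose, where 7.12% of all genes fell and 5.42% rose. For limma-voom the numbers were 9 and 0, beside 3.13% and 1.87% of all genes. Those that fell held 2 DEGs, Eif1 and Eif3e, against 2.04% of all genes that were DEGs in that direction and 1.63% in the other. All 4 AM values lay below all 4 CAC values in 24 factor genes (42.1%, against 9.27% of all genes). The CAC libraries are the same as in CAC vs. NOR, so the 2 comparisons are not independent.

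Eif1 was at 309, 366, 350.2, and 322 CPM in AM mice 1 to 4, below the lowest CAC mouse at 531 CPM, and it fell by 0.73 ± 0.096 on the log2 scale (FDR 0.00937). It kept an FDR of at most 0.05 whichever of the 8 mice was left out, but not with the replicate numbers as a block (FDR 0.133), in a fit of all 16 libraries (FDR 0.092), or without the libraries that stood apart (FDR 0.134). Eif3e was at 89.0, 93.3, 84.4, and 83.6 CPM in AM, also without overlap, and fell by 0.71 ± 0.12 (FDR 0.0192), with the FDR above 0.05 without CAC 1, CAC 2, AM 2, AM 3, or AM 4. Eif3f had 278, 274, 242, and 233 CPM in AM (−0.52, FDR 0.0248), Eif4g3 had 186, 205, 191.5, and 198 (−0.56, FDR 0.0348), and Eif5b had 84.4, 93.6, 96.1, and 85.3 (−0.45, FDR 0.0252). In each of these the AM mice lay below the CAC mice. The summed Eif3j1 and Eif3j2 counts were at 103, 145, 128, and 125 CPM in AM, all below the CAC mice (−0.74 ± 0.13, FDR 0.0205). The remaining genes that fell were Eif3g (−0.44), Eif2b1 (−0.44), Eif2b5 (−0.42), and Eif3i (−0.36), with FDRs from 0.0152 to 0.0371. Of the 7 genes that fell without being DEGs, each lost its call in 3 to 8 of the 8 cases with a mouse left out, those of CAC 1, AM 3, and AM 4 among them for all 7.

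Other genes with a call in CAC vs. NOR did not pass here. Eif1a had 16.95, 22.5, 19.3, and 15.2 CPM in AM, where AM 2 overlapped with the CAC mice (−0.38, FDR 0.201). Eif4a1 had 170.5, 153, 163, and 132 CPM (−0.51, FDR 0.0599), all below the CAC mice. Eef2 had 3268, 2969, 2442, and 2469 CPM, where AM 1 overlapped with CAC (−0.26, FDR 0.374). Eif4e ranged widely in AM, at 27.6, 61.9, 80.3, and 64.3 CPM, with AM 1 far below the rest (−0.20 ± 0.27, FDR 0.734). Without AM 1 its value was 0.04 (FDR 0.930), and without the libraries that stood apart −0.07 (FDR 0.859). By complex, the genes that fell were 1 of 5 in the eIF1 family, 2 of 5 in eIF2B, 4 of 14 in eIF3, 1 of 12 in eIF4, and 1 of 5 in the group of Eif5, Eif5a, Eif5a2, Eif5b, and Eif6. In the other groups none fell in edgeR or limma-voom. At an unadjusted p under 0.05, where 21.7% of all genes passed in either direction, some were lower. They were the 4 genes grouped as eIF2 (Eif2s1, Eif2s2, Eif2a, and Eif2d), 2 eEF1 genes, and the kinase gene Eef2k, but not Eef2. DESeq2 called 1 gene of the eIF2 group and 1 of the group of Eef2 and Eef2k.

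AM 1, AM 3, and CAC 4 are among the 4 libraries that stood apart. With these 3 left out, 2 AM and 3 CAC libraries remained, and edgeR called 0 factor genes and 0 of all genes, of which 16.4% had an unadjusted p under 0.05, while the median log2 fold change of the factor genes was −0.29, close to that with all 8 libraries. A term for the 4 libraries in the fit instead gave 11 factor genes that fell, 5 of them DEGs. Leaving out AM 4, which is not among the 4 libraries, left 1 factor gene that fell. AM 1 also held liver transcripts, with hepatocyte markers at 1402 CPM against 0.138 to 17.0 CPM in the other libraries, and 4 factor genes fell when it was left out. The part of the liver transcripts in the result was not tested. No interaction with the labelled strain passed among the factor genes or all 15305 genes in this comparison in edgeR, with 4 of the 58 factor genes that passed the filter of that fit at an unadjusted p under 0.05, where 11.8% of all genes were.

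**Figure D3:**
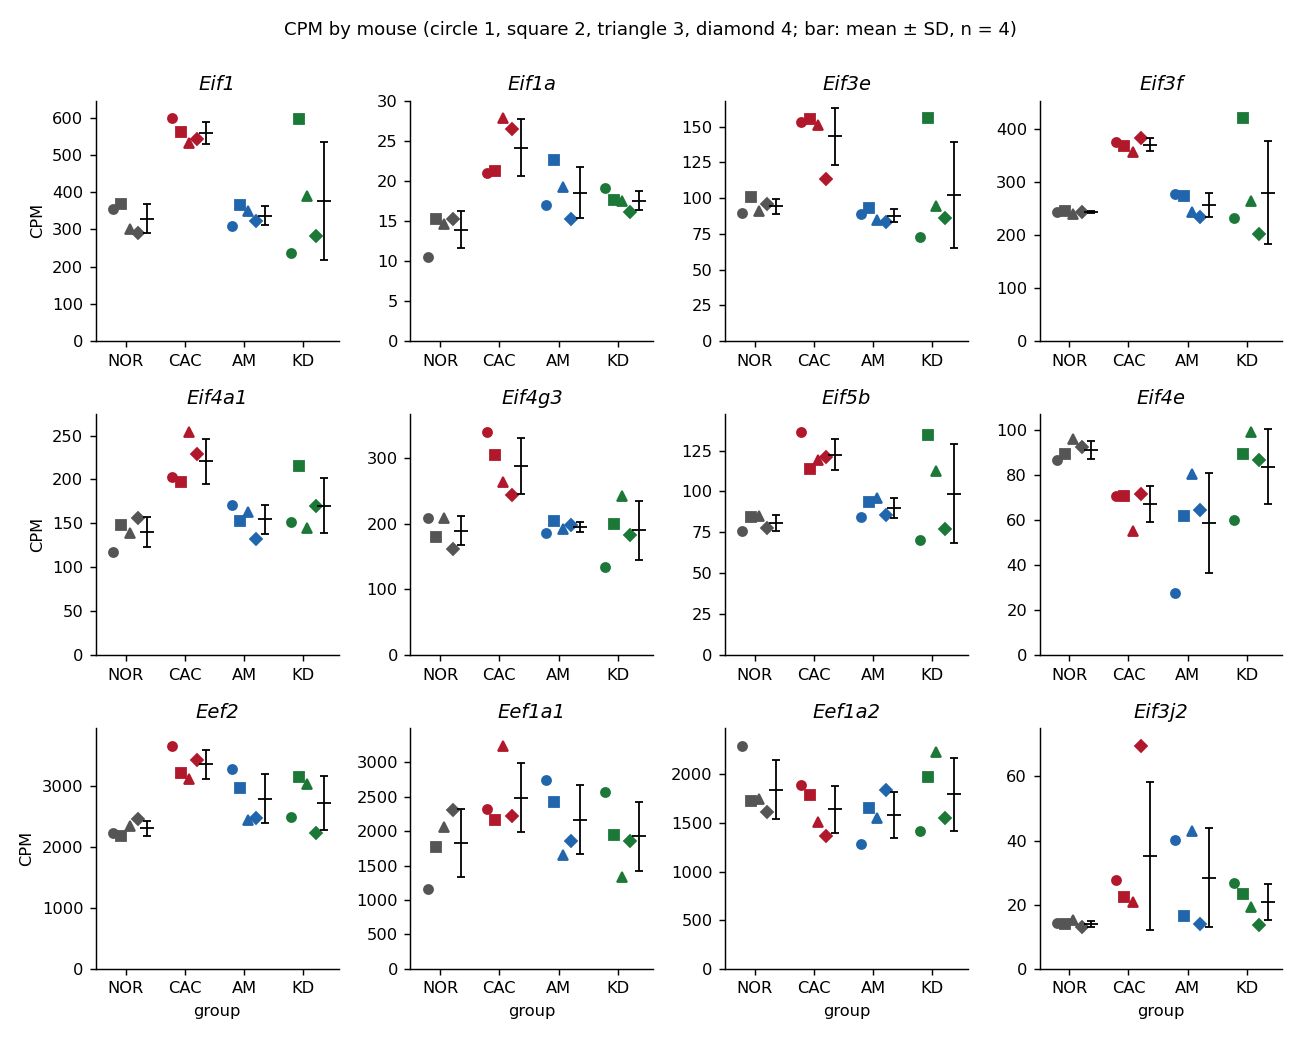
CPM of 12 factor genes in each mouse (symbols, 1 to 4 within a group) with the mean and SD of the 4 mice of a group beside them. Eif1, Eif3e, Eif3f, and Eif5b are high in the 4 CAC mice and in KD 2 and lower in the other mice, and Eif4e is lower in CAC than in NOR. Eif3j2 is highest in CAC 4, at 69.4 CPM, followed by AM 3 and AM 1, which also stood apart.

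KD vs. CAC compared muscle of mice with tumors of Rab27 knock-down cells and muscle of mice with unmodified tumors. No factor gene passed in the edgeR fit of these 8 libraries, and 0.00685% of all 14593 genes did, which is 1 gene. In a fit of all 16 libraries 1 factor gene, Eif3a, was lower (−0.40, FDR 0.044), beside 0.644% of all genes higher and 0.473% lower. At an unadjusted p under 0.05, 8 factor genes were lower and 0 higher, where 11.1% of all genes passed this limit in either direction. Without a limit on the fold change, limma-voom called 0 factor genes and 0% of all genes. DESeq2 called 2 factor genes lower, Eif3a and Eif5, where 0.925% of all genes were lower and 1.73% higher. The median log2 fold change was −0.25 against 0.00 over all genes, with 50 negative and 7 positive values. In 8 factor genes (14%) all KD values lay below all CAC values, against 3.58% of all genes: Eif1a, Eif2s1, Eif3a, Eif3c, Eif3m, Eif4enif1, Eif4g3, and Eif5.

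The KD mice differed widely among themselves. Eif1 was at 237, 595, 388, and 283 CPM in KD mice 1 to 4, so KD 2 lay among the CAC mice and KD 1 and KD 4 below every NOR mouse (−0.57 ± 0.28, FDR 0.496). Eif3e showed the same order, at 72.55, 156, 94.5, and 86.0 CPM, and Eif3f had 232, 420.0, 263, and 203 CPM, where KD 2 was the highest of all 16 libraries. Relative to the NOR mean, 52 of the 57 factor genes were higher in KD 2 and 9 in KD 1, with medians of 0.34 and −0.20. KD 1 is among the libraries that stood apart, and KD 2 had the highest erythroid marker sum, at 21200 CPM. Their part in the difference was not tested. Without KD 2 the median log2 fold change of KD vs. CAC was −0.38, and without the 4 libraries it was −0.19, with 0 genes called in edgeR.

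Genes without overlap between KD and CAC also stayed below the limit of the test. Eif4g3 was at 134, 199.9, 243, and 182.5 CPM, all below the CAC mice, with KD 3 just under the lowest of them (−0.61 ± 0.20, FDR 0.333). Eif1a, at 19.05, 17.5, 17.5, and 16.03 CPM, had −0.46 ± 0.14 (FDR 0.307), and Eif5 had −0.46 ± 0.11 (FDR 0.267). Eif4e was at 60.02, 89.2, 99.0, and 86.8 CPM in KD, higher than in CAC in 3 of 4 mice (0.32 ± 0.17, FDR 0.536), and overlapped. Summed Eif3j1 and Eif3j2 counts were at 72.25, 197, 182, and 122 CPM in KD, which overlapped with CAC too (−0.55 ± 0.29, FDR 0.536).

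No factor gene passed between NOR and the AM or KD mice. In AM vs. NOR and in KD vs. NOR, edgeR called 0 factor genes and 0% of all genes, with DESeq2 and limma-voom also at 0 DEGs among the factor genes. At an unadjusted p under 0.05, 2 were higher and 4 lower in AM, where 9.19% of all genes passed in either direction, and 1 was higher and 0 lower in KD, where 3.54% of all genes did. The signs were nearly balanced in AM vs. NOR, with 30 positive and 27 negative values and a median of 0.01, while 45 were positive and 12 negative in KD vs. NOR, with a median of 0.09.

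Related genes for the same factor were compared by the ratio of their FPKM within a mouse, which does not depend on the size of the library. The ratio of Eif1b to Eif1 was 0.0786 to 0.105 in NOR, 0.0579 to 0.0712 in CAC, 0.0821 to 0.0923 in AM, and 0.0827 to 0.108 in KD. The CAC ratios were below those of all other groups. Eif4g3 to Eif4g1 went the other way, at 0.196 to 0.2595 in NOR, 0.3025 to 0.348 in CAC, 0.228 to 0.264 in AM, and 0.2099 to 0.245 in KD, so CAC was above all others. On the log2 scale the differences of CAC from NOR were −0.52 for Eif1b to Eif1 and 0.50 for Eif4g3 to Eif4g1. Each had a two-sided exact permutation p of 0.0286, the smallest that 4 against 4 mice allow, and an adjusted p of 0.0735 over the 18 ratios and comparisons computed, which misses the limit of 0.05. Eif4e3 to Eif4e was 0.2705 to 0.323 in NOR and 0.371 to 0.4801 in CAC, with the same exact p and adjusted p. For Eef1a2 to Eef1a1 the ratio was 1.07, 0.528, 0.461, and 0.3795 in NOR mice and 0.4425, 0.449, 0.254, and 0.3325 in CAC mice, a log2 difference of −0.64 with an exact p of 0.114 and an adjusted p of 0.229. NOR 1 was the only NOR or CAC mouse in which the muscle isoform exceeded Eef1a1, and 51.5% of the 31-base words of Eef1a1 are shared with other genes.

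**Figure D4:**
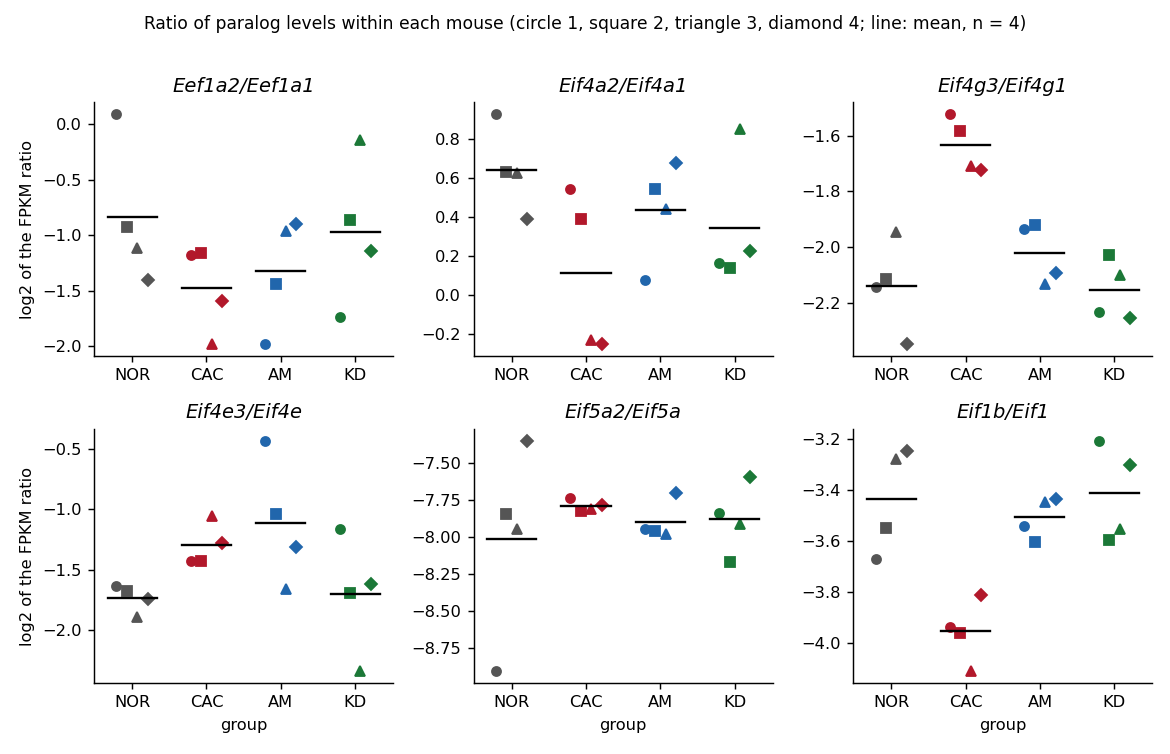
Log2 ratio of the FPKM of 2 related genes within each mouse (symbols) and the mean of the 4 mice (line) for 6 pairs of factor genes in the 4 groups. The CAC mice lie above all others for Eif4g3 to Eif4g1 and below all others for Eif1b to Eif1, and the groups overlap for Eef1a2 to Eef1a1.

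Other genes of the translation pathway gave the setting. Of 22 genes whose products regulate the factors, 5 rose and 0 fell in CAC vs. NOR, where 7.79% and 6.17% of all genes did. They were led by Eif4ebp1, whose product binds and blocks eIF4E and which had 63.5, 59.6, 56.3, and 86.1 CPM in NOR and 274, 249, 435, and 438 CPM in CAC (2.40 ± 0.24, FDR 0.00214). In AM it was at 79.6, 103, 83.2, and 65.5 CPM (−2.08 vs. CAC, FDR 0.00552), and in KD at 63.7, 163, 66.1, and 89.3. The eIF4E kinase gene Mknk2 rose by 1.39 and the hypusine synthase gene Dhps by 0.60 in CAC, and both were lower in AM than in CAC, by −1.42 (FDR 0.0426) and −0.65 (FDR 0.00937). In CAC, 2 of 10 genes for poly(A)-binding and termination factors rose, against 7.79% of all genes. They were the release factor gene Etf1, by 0.65, and the recycling factor gene Abce1, by 0.36.

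The ribosomal proteins, the synthetases that charge tRNA, and the factors of mitochondrial translation were counted in the same way, beside the 7.79% of all genes that rose in CAC. Of 78 cytosolic ribosomal protein genes tested, 52 rose (median log2 fold change 0.45), 73 had a positive and 5 a negative value. Among the negative ones, Rps2, Rpl29, Rpl35a, and Rpl26 were far lower in CAC 4 than in CAC 1 to 3. Rps2 was at 49.3 CPM in CAC 4 against 933 to 1039, and Rpl26 at 11.9 against 360 to 405. Among the synthetases, 6 of 20 cytosolic aminoacyl-tRNA synthetase genes rose, 17 were positive and 3 negative, with a median of 0.24 and Vars at 1.02 (FDR 0.00651). Of 9 mitochondrial factor genes none passed in edgeR or limma-voom, 5 were lower at an unadjusted p under 0.05 (29.1% of all genes passed in either direction), DESeq2 called 2 lower, and the median was −0.33. In AM vs. CAC, 9 ribosomal protein genes and 6 synthetase genes fell, where 3.22% of all genes did. In KD vs. CAC no gene of these lists passed in edgeR. At an unadjusted p under 0.05, 20 of the 78 ribosomal protein genes were lower, where 11.1% of all genes passed in either direction.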

How the data were processed

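The authors made poly(A) libraries and aligned and counted the reads. The submitters' processing notes name fastp, Bowtie2, HISAT2, StringTie 1.3.1, and the builds mm9 and GRCm38, without roles. The deposited table holds raw counts per gene for 16 libraries and FPKM values that the authors computed from the same counts. No column was left out.

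The quasi-likelihood F test of edgeR 4.0.16 (R 4.3.3) was run on the raw counts after TMM normalization, with filterByExpr set to 10 counts and a total of 15, and each fit held only the 8 libraries of its 2 groups. CPM values shown use TMM over 16 libraries. FPKM served for levels between genes and for paralog ratios, which were tested by exact permutation on log2 ratios. DESeq2 1.42.0, limma-voom (limma 3.58.1), other scalings and filters, a term for the labelled strain, the replicate block, and leaving out each mouse were alternatives. Fits without the 4 libraries that stood apart, or with a term for them, and the Eif3j1 and Eif3j2 sum were chosen after seeing the data. Named genes were the DEGs, the gene with the largest change of each complex, a fixed list of central factors, and the paralogs, and others were named after their values were seen, to complete a complex. The members and lists were chosen with earlier results of these data known. The authors' own DEG tool, NOISeq, was not run. Scripts were tested on simulated data. Positions come from GENCODE M21 (GRCm38), which matched 21905 gene identifiers and not 18. The count totals of the libraries leave the spread between mice as the main error. Ambiguity of reads was described by the share of 31-base words of a gene's transcripts that occur in other genes.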

Additional observations from a re-analysis of the deposited data

Results flagged for a closer look

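Within groups of 4 mice, 8 of 112 sets of CPM values (28 genes in 4 groups) had a mouse far from the rest by Dixon's 95% criterion, which chance gives in about 1 in 20 sets. CAC 4 was 3 of these mice. It was the highest of its group for Eif3j2, at 69.4 CPM against 20.98 to 27.6, and for Eif4e3, at 43.6 against 38.8 to 39.0, and the lowest for Eif3e, at 113 against 151.5 to 155. CAC 3 was the highest for Eef1a1, at 3235 CPM against 2163 to 2322, and the lowest for Eif4e, at 54.99 against 70.7 to 71.7. NOR 1 was the lowest for Eif1a, at 10.5 CPM against 14.6 to 15.3, and the highest for Eif2b1, at 44.6 against 38.9 to 39.5. KD 3 was the lowest for Eif4e3, at 28.9 CPM against 39.5 to 41.7.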

How the results depend on the processing

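For the 8 DEGs higher in CAC than in NOR, no fold limit gave 24 genes, upper-quartile scaling 3, total counts only 15, and mice of either labelled strain alone 0. Leaving out a mouse gave 4 to 11, with 4 without CAC 1, 5 without NOR 3 or NOR 4, and 11 without CAC 4. With 1 mouse left out and no fold limit, the number that rose ranged from 8 (without NOR 3) to 26 (without CAC 4). It was 10 without NOR 2, 11 without CAC 1, and 15 without NOR 4 or CAC 2. With no fold limit, DESeq2 on all 8 mice gave 28, and mice of either labelled strain alone gave 0. Without a fold limit 1 gene, Eif4e, fell, and 0 did so without NOR 3, with the replicate block, in 1 fit of all 16 libraries, or in either labelled strain alone. For the 2 DEGs lower in AM than in CAC, no fold limit gave 9 genes, DESeq2 4, all 16 libraries in 1 fit 0, mice labelled C57BL/6 alone 0, mice labelled BALB/c alone 0, leaving out the 4 libraries that stood apart 0, and a term for these libraries 5. Leaving out a mouse gave 1 to 4, with 1 without CAC 1, CAC 2, AM 2, AM 3, or AM 4 and 4 without CAC 4. Fits of fewer mice test with fewer libraries, and otherwise the cause was not tested. Total counts only moved the median of all genes to 0.14 in CAC vs. NOR and to −0.11 in KD vs. CAC. With a replicate block, 7 DEGs were higher in CAC than in NOR (13 genes without a fold limit) and 0 lower in AM than in CAC. Without a fold limit too, 0 fell in AM with the block or in 1 fit of all 16 libraries, where 0% and 0.795% of all genes did. Correlations of same-numbered mice ranged from −0.157 to 0.669 in CAC vs. NOR and from −0.648 to 0.028 in AM vs. CAC, so the replicate numbers were not taken to pair the mice. No result turned its direction among called values, and of the other values for named genes 3472 kept their side of the limit, 253 lost it, and 37 passed it newly.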
